A study of Mus musculus with 32 samples.

Results

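The comparison described here set mesenteric arteries after 14 days of angiotensin II (Ang II) against arteries from sham-operated mice at the same time. It used 16 of the 32 libraries of the series, namely the 8 labelled 14-day Ang II and the 8 labelled 14-day sham. The other 16 libraries came from 7-day groups; they entered the estimate of the spread and are compared only where time is described. Where a name had several rows, only its most abundant row was used. The test covered rows averaging at least 1 normalised RPM across the series, 543 of 1030 distinct rows. Just inside that limit were miR-1306-5p (1.003 RPM), miR-92a-1-5p (1.004 RPM) and miR-431-3p (1.007 RPM), and just outside it miR-135a-5p (0.986 RPM), miR-547-3p (0.982 RPM) and miR-3074-5p (0.981 RPM).

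All mice were male wild-type C57BL/6J animals aged 10 to 12 weeks. The Ang II group received 1000 ng/kg/min under the skin from osmotic minipumps for 14 days, and the sham group had surgery without the hormone. Arteries were freed of fat, veins and neighbouring tissue before RNA extraction, and small RNA libraries were made from 1 µg of total RNA. The labels give 10 mice and 8 libraries per group, and each library carries its own mouse number.

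Ang II is a peptide hormone that constricts arteries, raises blood pressure and drives growth and matrix deposition in the vessel wall. Mesenteric arteries feed the gut and include small vessels that set resistance to flow. MicroRNAs (miRNAs) are short RNAs cut from hairpin precursors, and they repress messenger RNAs that pair with their seed, the bases near the 5′ end. A hairpin can yield an RNA from each side, called the 5p and 3p arms, and miRNAs with the same seed form a family. Many arise in clusters from a shared transcript, the largest of them in the imprinted Dlk1-Dio3 region, where the miRNAs are made from the maternal chromosome.

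The sequences of the miRNAs on which the description turns are given first, from RefSeq for GRCm38.p6, 5′ to 3′, with bases 2 to 8 (the seed) in capitals. RefSeq sequences were matched for 355 tested rows and for 30 of the 35 that changed. The first 4 come from the Dlk1-Dio3 region and have 4 different seeds.
miR-431-5p: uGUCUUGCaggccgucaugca
miR-434-5p: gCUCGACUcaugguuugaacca
miR-541-5p: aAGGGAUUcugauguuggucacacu
miR-382-5p: gAAGUUGUucgugguggauucg

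The next pair, miR-132-3p and miR-212-3p, come from 1 locus and share a seed, and thus pair with the same kind of target site.
miR-132-3p: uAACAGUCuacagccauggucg
miR-212-3p: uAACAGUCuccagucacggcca

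Higher miRNAs outside these loci were a matrix-linked miRNA, the main arm of miR-140, a miRNA hosted by a replication gene and a red cell miRNA.
miR-199a-5p: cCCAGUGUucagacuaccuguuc
miR-140-3p: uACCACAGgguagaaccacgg
miR-106b-3p: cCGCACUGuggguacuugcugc
miR-451a: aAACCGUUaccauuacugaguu

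Lower miRNAs included a pair linked to epithelium and the miR-101 pair. The sequence of miR-101c lies within miR-101a-3p, at bases 2 to 20, which shifts its seed by a base.
miR-203-3p: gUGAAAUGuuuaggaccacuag
miR-96-5p: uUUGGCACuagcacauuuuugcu
miR-101a-3p: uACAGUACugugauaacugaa
miR-101c: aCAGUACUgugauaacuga
miR-181c-5p: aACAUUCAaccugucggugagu
miR-26b-5p: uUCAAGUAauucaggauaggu

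After 14 days of Ang II, 35 of 543 miRNAs (6.45%) changed at a Benjamini-Hochberg adjusted p under 0.05 in limma. Of these, 24 (4.42%) were higher and 11 (2.03%) lower, while 140 rows (25.8%) had an unadjusted p under 0.05. The count was 3 in a fit to the 14-day groups alone and 21 without Ang II replicate 3, and 0 without the 4 sham libraries highest in miR-141-3p, a split chosen after the data were seen. Imprinted miRNAs of the Dlk1-Dio3 region made up 14 of the 24 rises, while they were 58 of the 543 rows tested. The other rises included miR-132-3p and miR-212-3p, both arms of miR-140, miR-199a-5p, and miR-451a with miR-144-5p from red cells. The falls were smaller in number, and 4 of the 11 were entries that the files do not place, with names such as Novel_y_2. Of all 543 rows, 272 (50.1%) lay above 0 and the median log2 fold change was 0.00 under the authors' scaling (0.23 with library totals alone).

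Rises occurred at all levels, while falls were rare among the least abundant miRNAs. Among 263 rows with a mean of 1 to 10 RPM, 10 rose and 1 fell. From 10 to 100 RPM, 9 of 151 rose and 5 fell, and from 100 to 1000 RPM 4 of 81 rose and 2 fell. Among the 48 rows above 1000 RPM, 1 rose and 3 fell, and the median log2 fold change was -0.20. The 24 rises together made up 0.582% ± 0.137 of the sham reads and 0.994% ± 0.195 of the Ang II reads (mean and SD over 8 libraries), which describes rows picked by the test. miR-143-3p, the smooth muscle miRNA that dominates these arteries, held 46.4% ± 3.47 of the sham reads and 45.0% ± 4.17 of the Ang II reads (SD, exact two-sided permutation p = 0.53, 8 libraries a group).

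**Figure D1:**
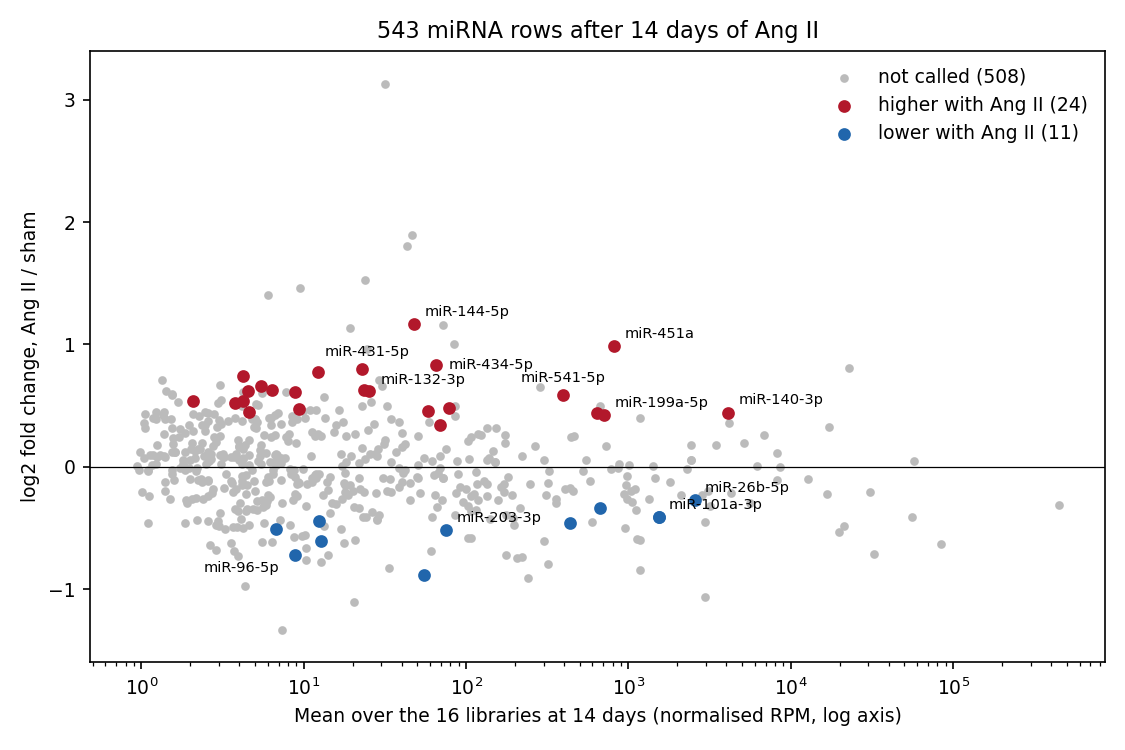
Each point is 1 of 543 miRNA rows, with its mean over the 16 libraries at 14 days (normalised RPM, log axis) against the log2 fold change of Ang II over sham. The 24 rises (red) and 11 falls (blue) lie among many rows that did not pass the test (grey), some of them with larger but more variable changes.

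The first of 3 parts of the Dlk1-Dio3 region holds the miRNAs opposite the Rtl1 gene. They are transcribed from the strand opposite to Rtl1, a retrotransposon-derived imprinted gene, and repress it by full pairing. Of 9 tested arms 9 lay above 0 and 4 rose, with a median log2 fold change of 0.47. miR-434-5p was at 33.1, 44.0 and 57.1 RPM (lowest, median and highest of 8 libraries) in sham and at 61.8, 79.6 and 160 RPM with Ang II. The 2 groups did not overlap, as in 2 of the 543 rows (0.368%). On the log2 scale the rise was 0.83 ± 0.18 (SE), or 1.78-fold, with an adjusted p of 0.00626.

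miR-431-5p, which the study's own authors are known to have followed up, was at 11.4, 16.2 and 20.1 RPM in sham and at 19.6, 28.5 and 44.3 RPM with Ang II. Of the 8 Ang II libraries 7 lay above every sham library. The rise was 1.74-fold (log2 fold change 0.80 ± 0.15 SE, adjusted p = 0.00473), and it was the smallest p of the comparison. miR-433-3p also rose, from a median of 3.91 to 6.67 RPM (adjusted p = 0.0489), and 1 Ang II library stayed below the sham median. The arms of this subcluster did not move equally. miR-127-5p, the rare arm of a hairpin opposite Rtl1, rose from a median of 7.57 to 10.9 RPM (log2 fold change 0.47, adjusted p = 0.0403), whereas the abundant miR-127-3p had medians of 7747 RPM in sham and 7457 RPM with Ang II (log2 fold change 0.11, adjusted p = 0.772). The other arm of miR-434 stood at 0.65 (miR-434-3p, adjusted p = 0.0976). For miR-136-5p from the same stretch the value was 0.07 (adjusted p = 0.822).

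Elsewhere in the region, outside both Rtl1 and Mirg, 8 of 8 tested arms lay above 0 and 1 rose, with a median of 0.36. The riser was miR-337-5p, at 6.20, 8.69 and 11.3 RPM in sham and 11.1, 14.96 and 22.9 RPM with Ang II. Its lowest Ang II library and its highest sham library were nearly level, and 7 Ang II libraries lay above every sham library. The rise was 1.71-fold (adjusted p = 0.00682). miR-370-3p, a low miRNA with means of 1.01 RPM in sham and 2.09 RPM with Ang II, stood just beyond the threshold (log2 fold change 0.58, adjusted p = 0.0510).

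The distal cluster from miR-379 to miR-410, which surrounds the noncoding gene Mirg, had 41 tested arms. Of these 40 lay above 0 and 9 rose, with a median of 0.40. The arms of miR-299a and miR-299b were near copies, with 734 and 731 reads for the 5p arms and 2558 and 2545 for the 3p arms. Each such pair amounts to 1 measurement but is counted as 2 arms here and in the 58 rows of the region. The smallest p belonged to miR-541-5p, hosted in a Mirg intron. It was at 218, 304 and 391 RPM in sham and at 333, 475 and 635 RPM with Ang II. A single Ang II library, replicate 4, lay within the sham range. The rise was 1.503-fold (0.59 ± 0.12 SE on the log2 scale), with an adjusted p of 0.00473.

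Both arms of miR-411 rose, and they differ in level by a wide margin. miR-411-5p was at 474, 542 and 637 RPM in sham and 606, 673 and 1078 RPM with Ang II (1.35-fold, adjusted p = 0.0174). miR-411-3p went from a median of 4.89 to 7.21 RPM (1.54-fold, adjusted p = 0.00794). Its seed is shared with miR-379-3p, whose groups did not overlap either, at 4.31 to 6.36 RPM in sham and 6.62 to 10.9 RPM with Ang II, but whose adjusted p was 0.0634. The rises in this cluster also included miR-382-5p (1.68-fold, adjusted p = 0.00616), miR-668-3p (1.53-fold, adjusted p = 0.0174), miR-329-5p (1.45-fold, adjusted p = 0.0207), miR-496a-3p (1.45-fold, adjusted p = 0.0369), miR-485-3p (1.36-fold, adjusted p = 0.0174) and miR-300-3p (1.37-fold, adjusted p = 0.0493). The exception in direction was miR-329-3p (log2 fold change -0.01).

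**Figure D2:**
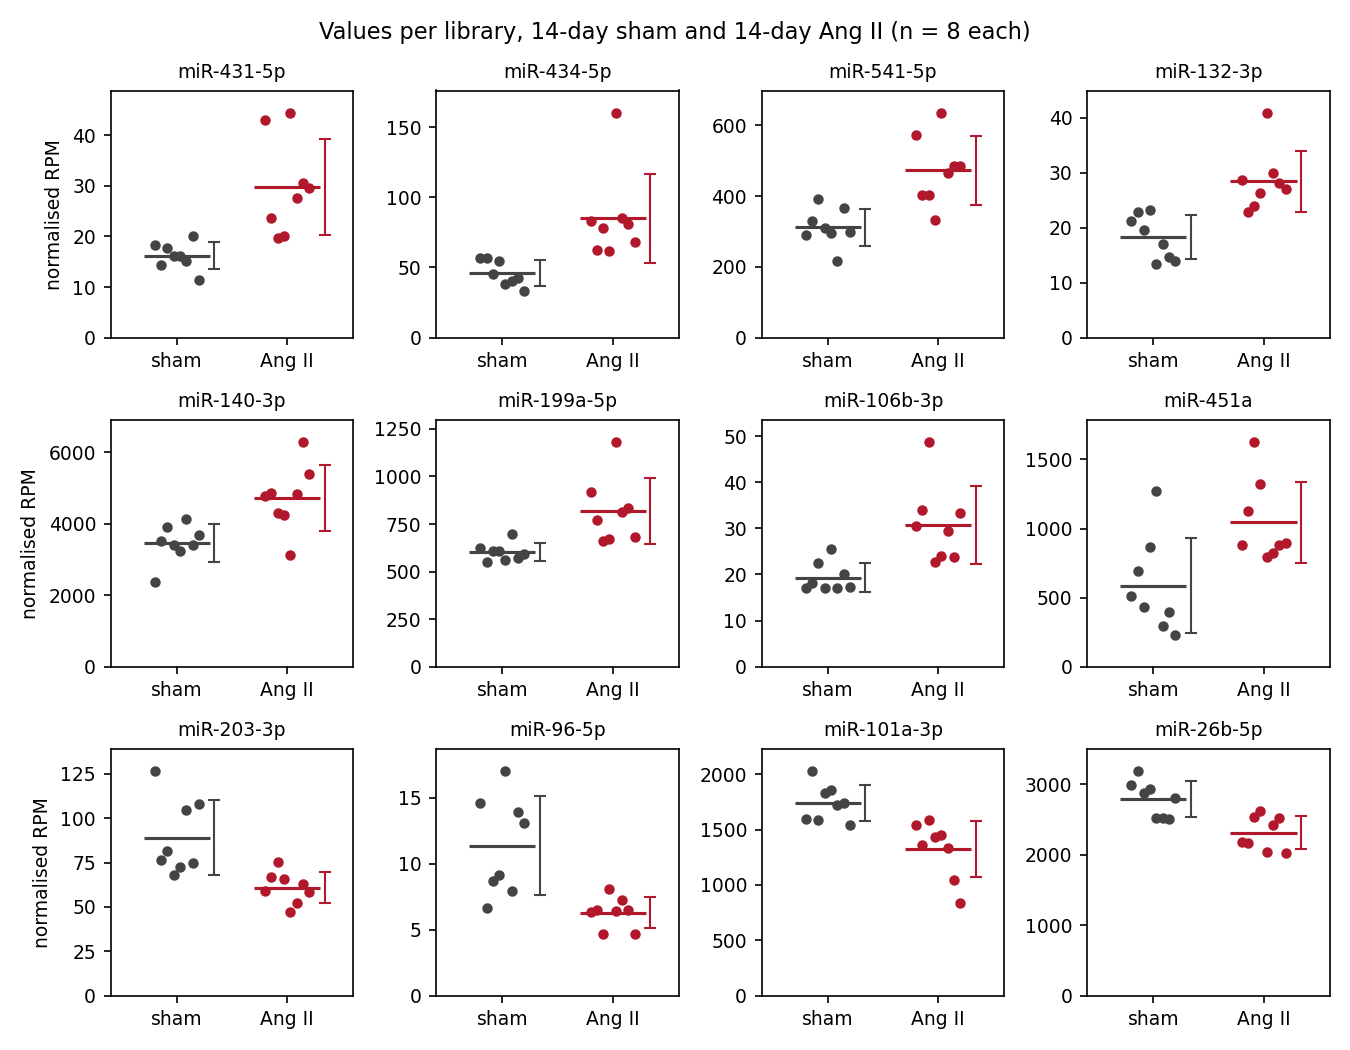
Normalised RPM of 12 miRNAs in the 8 sham (grey) and 8 Ang II (red) libraries at 14 days. Points are libraries, horizontal lines are group means and bars are 1 SD; the axes start at 0. The sham and Ang II points of miR-434-5p do not overlap, and 7 of 8 Ang II libraries exceed every sham library for miR-431-5p and miR-541-5p.

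miR-132 and miR-212, made from neighbouring hairpins on chromosome 11, are known to be induced by Ang II in heart and vascular cells and by CREB signalling. All 4 tested arms lay above 0, with a median of 0.52, and both 3p arms rose. miR-132-3p was at 13.4, 18.4 and 23.3 RPM in sham and at 22.8, 27.7 and 40.9 RPM with Ang II. Only the lowest Ang II library fell within the sham range, and the rise was 1.54-fold (0.62 ± 0.14 SE on the log2 scale, adjusted p = 0.00931). miR-212-3p was lower in abundance, with a median of 3.04 RPM in sham and 3.93 RPM with Ang II (1.43-fold, adjusted p = 0.0328). The 5p arms, at means of 1.37 and 1.67 RPM, had log2 fold changes of 0.45 for miR-132-5p (adjusted p = 0.105) and 0.53 for miR-212-5p (adjusted p = 0.107).

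Among miRNAs linked to matrix and fibrosis, the rises were at miR-199a-5p and miR-140. miR-214 and the Mir199a-2 copy of miR-199a are cut from the noncoding RNA Dnm3os, which is active in mesenchymal cells. The list of miR-199 and miR-214 arms also holds miR-199b-5p and the joint row miR-199a-3p/miR-199b-3p, so it is not Dnm3os alone. In this list 5 of 5 tested arms lay above 0 (median 0.40). miR-199a-5p was at 550, 600 and 699 RPM in sham and 662, 793 and 1181 RPM with Ang II. The sham libraries were tightly grouped, 5 Ang II libraries exceeded all of them, and the rise was 1.34-fold (adjusted p = 0.0174). It has 2 hairpin copies in the genome, so its reads cannot be assigned to either. The value for miR-214-3p was 0.41 on the log2 scale (adjusted p = 0.117).

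miR-140, a miRNA best known from cartilage, lies in the gene Wwp2 (chr8:107551244-107551313, GRCm38, plus strand, within an annotated exon). The abundant arm miR-140-3p was at 2366, 3458 and 4142 RPM in sham and 3111, 4797 and 6284 RPM with Ang II. Apart from the lowest Ang II library, replicate 5, the groups were separate. The rise was 1.36-fold (log2 fold change 0.44 ± 0.11 SE, adjusted p = 0.0174), and miR-140-5p rose 1.40-fold (adjusted p = 0.0265). miR-140 and miR-411 were the 2 hairpins with both arms called.

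Other miRNAs with known roles in vascular remodelling did not pass. miR-21a-5p, which promotes fibrosis and smooth muscle growth, was at 2656, 3333 and 5874 RPM in sham and at 2740, 3799 and 8573 RPM with Ang II (log2 fold change 0.36, adjusted p = 0.260), and the groups overlapped widely. The miR-29 family, which represses collagens, had 1 of 5 arms above 0 and a median of -0.23, with miR-29b-3p at -0.23 (adjusted p = 0.249); with library totals alone the family median was 0.03. miR-155-5p, an inflammatory miRNA that also represses the Ang II receptor in human cells, stood at a log2 fold change of 0.35 (adjusted p = 0.168).

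Smooth muscle and endothelial miRNAs showed no call at 14 days. The contractile smooth muscle miRNAs miR-143 and miR-145 had 1 of 4 arms above 0 and a median of -0.07, which was 0.20 with library totals alone. miR-145a-5p was at 1853, 2171 and 2708 RPM in sham and 1334, 2582 and 3378 RPM with Ang II (log2 fold change -0.01, adjusted p = 0.952). The defining markers of both cell types were read in all 16 libraries. Endothelial miR-126-3p was at 1344 to 2204 RPM in sham and 1358 to 2077 RPM with Ang II (log2 fold change -0.12, adjusted p = 0.480), and miR-126-5p had -0.53 (adjusted p = 0.0901), with a median of -0.33 that was -0.06 with library totals alone. Striated muscle miRNAs had 1 of 4 arms above 0 (median -0.21, and 0.05 with library totals alone).

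The miR-106b/miR-93/miR-25 cluster lies in an intron of Mcm7, a DNA replication gene, and is linked to proliferation. All 5 tested arms were above 0 (median 0.31) and 1 rose. The other arm miR-106b-5p had 0.46 (adjusted p = 0.0919). miR-106b-3p (hairpin at chr5:138165737-138165818, GRCm38, minus strand) was at 16.96, 17.8 and 25.6 RPM in sham and 22.7, 29.95 and 48.7 RPM with Ang II. All 8 Ang II libraries exceeded the sham median and 5 exceeded every sham library (1.54-fold, adjusted p = 0.0241). The related miR-17 to miR-92 cluster had 6 of 8 arms above 0, a median of 0.12 and no call, with miR-92a-1-5p at 0.43 (adjusted p = 0.0803).

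Of 5 red cell arms 2 rose and 3 did not pass. miR-451a, which is cut by Ago2 rather than Dicer and accumulates in red cell precursors, was at 232, 472 and 1271 RPM in sham and 793, 890 and 1627 RPM with Ang II. The sham libraries spread widely and overlapped the Ang II range at their upper end, yet no Ang II library lay below the sham median (1.98-fold, adjusted p = 0.0296). Its neighbour miR-144-5p rose 2.24-fold (adjusted p = 0.0493). The arms that did not pass were miR-144-3p at 1.00 (adjusted p = 0.0698) and both arms shared by miR-486 and miR-3107, the 3p arm at 0.61 (adjusted p = 0.121) and the 5p arm at 0.80 (adjusted p = 0.164). The median of the 5 was 0.99, and their summed level ran from 5951 to 50268 RPM in sham and from 14978 to 53139 RPM with Ang II. In bulk tissue, more or fewer cells of a type and more or less RNA per cell cannot be told apart.

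Leukocyte miRNAs had 6 of 7 arms above 0 and a median of 0.32, with no call. Their summed level ran from 528 to 997 RPM in sham and 593 to 1323 RPM with Ang II. miR-142-5p, present throughout blood cells, stood at 0.49 on the log2 scale (adjusted p = 0.107), and the granulocyte miRNA miR-223-3p had 0.19 (adjusted p = 0.732).

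The falls with the smallest p were miR-203-3p and miR-96-5p. miR-203-3p, which drives skin epithelium to differentiate, was at 67.7, 78.9 and 127 RPM in sham and 47.4, 60.7 and 75.0 RPM with Ang II. Of the 8 Ang II libraries 7 lay below every sham library, and the level fell to 0.698-fold (-0.52 ± 0.13 SE on the log2 scale, adjusted p = 0.0174). miR-96-5p, known from sensory epithelium (hairpin at chr6:30169446-30169551, GRCm38, minus strand), was at 6.65, 11.1 and 17.04 RPM in sham and 4.66, 6.44 and 8.08 RPM with Ang II. The groups overlapped in part, with 6 Ang II libraries below every sham library (0.607-fold, adjusted p = 0.0174).

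Their relatives were lower without passing. The epithelial list of the miR-200 family, miR-203 and miR-205 had 0 of 10 arms above 0, a median of -0.65 and 1 fall, miR-203-3p. Its summed level was 1352 to 5069 RPM in sham and 1131 to 1766 RPM with Ang II. miR-141-3p was high in 4 sham libraries, replicates 5, 7, 1 and 8, at 2661, 2264, 2255 and 1825 RPM. The other 4 sham libraries, at 676 to 955 RPM, lay within the Ang II range of 515 to 1211 RPM. Gut and liver miRNAs had 1 of 4 arms above 0 (median -0.76), and miR-192-5p was at 15285 RPM in sham replicate 1 against a sham median of 2406 RPM and an Ang II median of 1511 RPM. The pancreas-enriched list had 1 of 7 arms above 0 (median -0.40, and -0.02 within series 26, the mouse numbers that begin with 26).

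A split chosen after the data were seen left out those 4 sham libraries. These libraries were picked as the highest in miR-141-3p, a member of the epithelial list, so a smaller fall of that list was built in. Without them the medians of these marker lists moved to -0.18 for the epithelial, -0.32 for the gut and liver and -0.05 for the pancreas-enriched list. The median log2 fold change of the 24 rises was 0.55 in place of 0.60, and that of the 11 falls was -0.44 in place of -0.46, while no row was called and 31 of the 35 kept an unadjusted p under 0.05. miR-96-5p went to -0.33, miR-181c-5p to -0.20 and miR-203-3p to -0.43. The choice of libraries by itself favoured smaller falls of these miRNAs too, since miR-203-3p is in the epithelial list. With group means removed, miR-96-5p varied with miR-141-3p (Pearson's r 0.81) and miR-181c-5p with miR-141-5p (0.70) over 32 libraries. Another fit used an epithelial level as a covariate, the mean of the miR-200a, miR-200b, miR-200c, miR-141 and miR-429 arms, without miR-203 and miR-205. In it limma called 2 rows, miR-431-5p and miR-541-5p (adjusted p = 0.0404 for each). The part of these epithelial, gut and pancreas miRNAs in the changes was not tested.

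**Figure D3:**
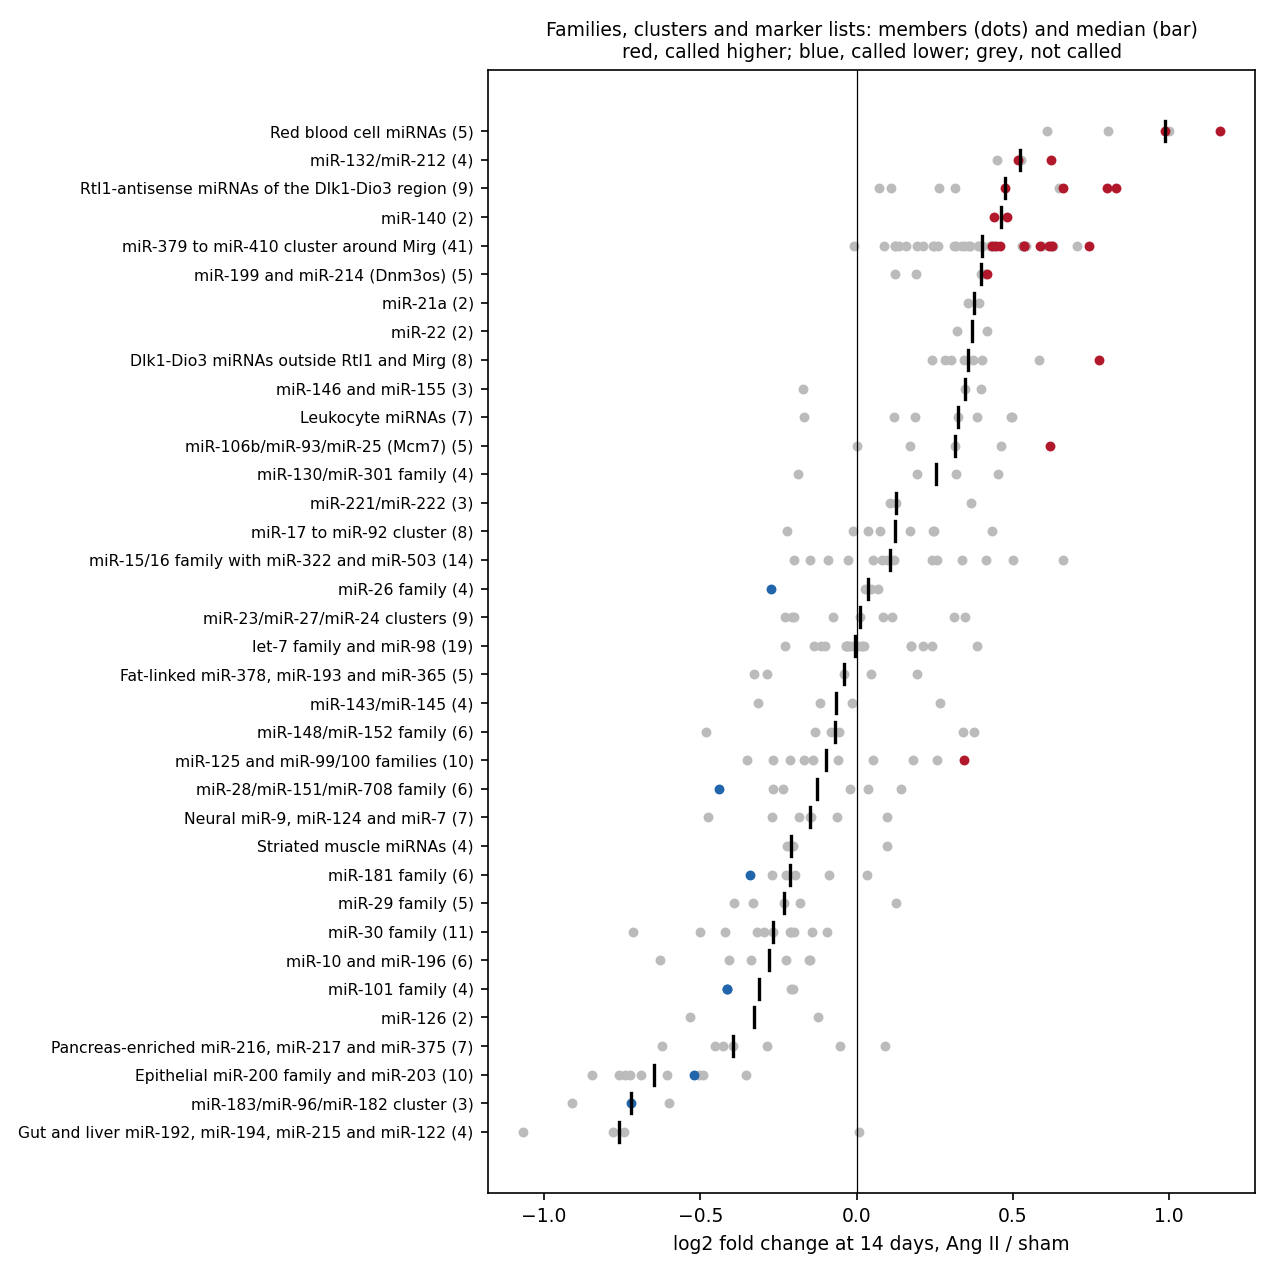
Log2 fold change at 14 days of each tested member (dots) of the families, clusters and marker lists with at least 2 tested rows, with the list median as a black bar. Red dots rose, blue dots fell and grey dots did not pass; the number of tested rows is in brackets. Medians run from -0.76 for gut and liver miRNAs to 0.99 for red cell miRNAs.

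miR-101a-3p, which represses the chromatin enzyme Ezh2, was at 1546, 1732 and 2030 RPM in sham and at 839, 1397 and 1585 RPM with Ang II. Of the 8 Ang II libraries 7 lay below every sham library (log2 fold change -0.41 ± 0.12 SE, adjusted p = 0.0403). The row for miR-101c held 810172 reads against 810251 for miR-101a-3p and moved with it, so the pair amounts to 1 measurement and its source cannot be told apart. All 4 rows of the family lay below 0 (median -0.31, and -0.07 with library totals alone), miR-101b-3p among them at -0.21.

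miR-181c-5p, of a family known for tuning T cell signalling, was at 638, 752 and 875 RPM in sham and 506, 580 and 692 RPM with Ang II (0.790-fold, adjusted p = 0.0368). The 4 members with its seed lay at log2 fold changes of -0.34 to -0.20, and 1 passed. Of the 6 family arms 5 lay below 0, with a median of -0.21, which was 0.06 with library totals alone.

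miR-26b-5p is made from an intron of Ctdsp1, a phosphatase gene (chr1:74394310-74394394, GRCm38, plus strand), and had the smallest change of the 35. It was at 2514, 2843 and 3190 RPM in sham and at 2029, 2301 and 2623 RPM with Ang II, with 5 Ang II libraries below every sham library (0.827-fold, adjusted p = 0.0493). With library totals alone its log2 fold change was -0.002. The far more abundant miR-26a-5p, with the same seed, had 0.04 (adjusted p = 0.821). miR-708-3p fell to 0.737-fold (adjusted p = 0.0489).

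Some families that hold very abundant miRNAs had all tested arms below 0 and no call. The miR-30 family had 0 of 11 arms above 0 and a median of -0.27, which was 0.003 with library totals alone. miR-30a-5p was at 19220, 39490 and 67555 RPM in sham and at 12079, 22232 and 39712 RPM with Ang II (log2 fold change -0.72, adjusted p = 0.109). Its share of the reads was 3.75% ± 0.988 in sham against 2.70% ± 0.436 after Ang II (SD, exact two-sided permutation p = 0.0146), the smallest p of the 5 abundant miRNAs so compared. The Hox-cluster miRNAs miR-10 and miR-196 had 0 of 6 arms above 0 (median -0.28, and -0.03 with library totals alone). Their most abundant members were miR-10b-5p at -0.63 (adjusted p = 0.308) and miR-10a-5p at -0.41 (adjusted p = 0.209). The let-7 family stood at the centre, with 9 of 19 arms above 0, a median of -0.005 (0.24 with library totals alone) and no call, let-7c-1-3p having the smallest p (0.39, adjusted p = 0.121). Of the 9 arms made with miR-23, miR-24 and miR-27 from their shared clusters 5 lay above 0 (median 0.01, and 0.28 with library totals alone) and none was called, with miR-27b-3p at -0.21 (adjusted p = 0.181).

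The unplaced entries leaned downward. Of 128 tested, 85 (66.4%) were below 0, against 44.8% of the 415 other rows, and 4 fell. Novel_y_2 was at 411, 489 and 599 RPM in sham and 214, 377 and 438 RPM with Ang II (0.725-fold, adjusted p = 0.0296), and Novel_y_30 had the largest called fall, to 0.543-fold (adjusted p = 0.0493). Novel_y_47 fell to 0.657-fold (adjusted p = 0.0296) and Novel_z_23 to 0.701-fold (adjusted p = 0.0493). The remaining rises were miR-125b-1-3p (1.27-fold, adjusted p = 0.0493) and miR-3969 (1.53-fold, adjusted p = 0.0493).

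The called miRNAs differed in how evenly the Ang II libraries carried them. The median deviation of the 24 rises from the sham mean was largest in Ang II replicate 5 (1.08 on the log2 scale) and replicate 1 (0.82), and smallest in replicate 4 (0.28). Each Ang II library held between 11 and 22 of the 24 rises above every sham library. The falls were deepest in Ang II replicate 8 (median -1.04) and shallowest in replicate 4 (-0.27). Since the rows were picked on these libraries, the values are a description.

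**Figure D4:**
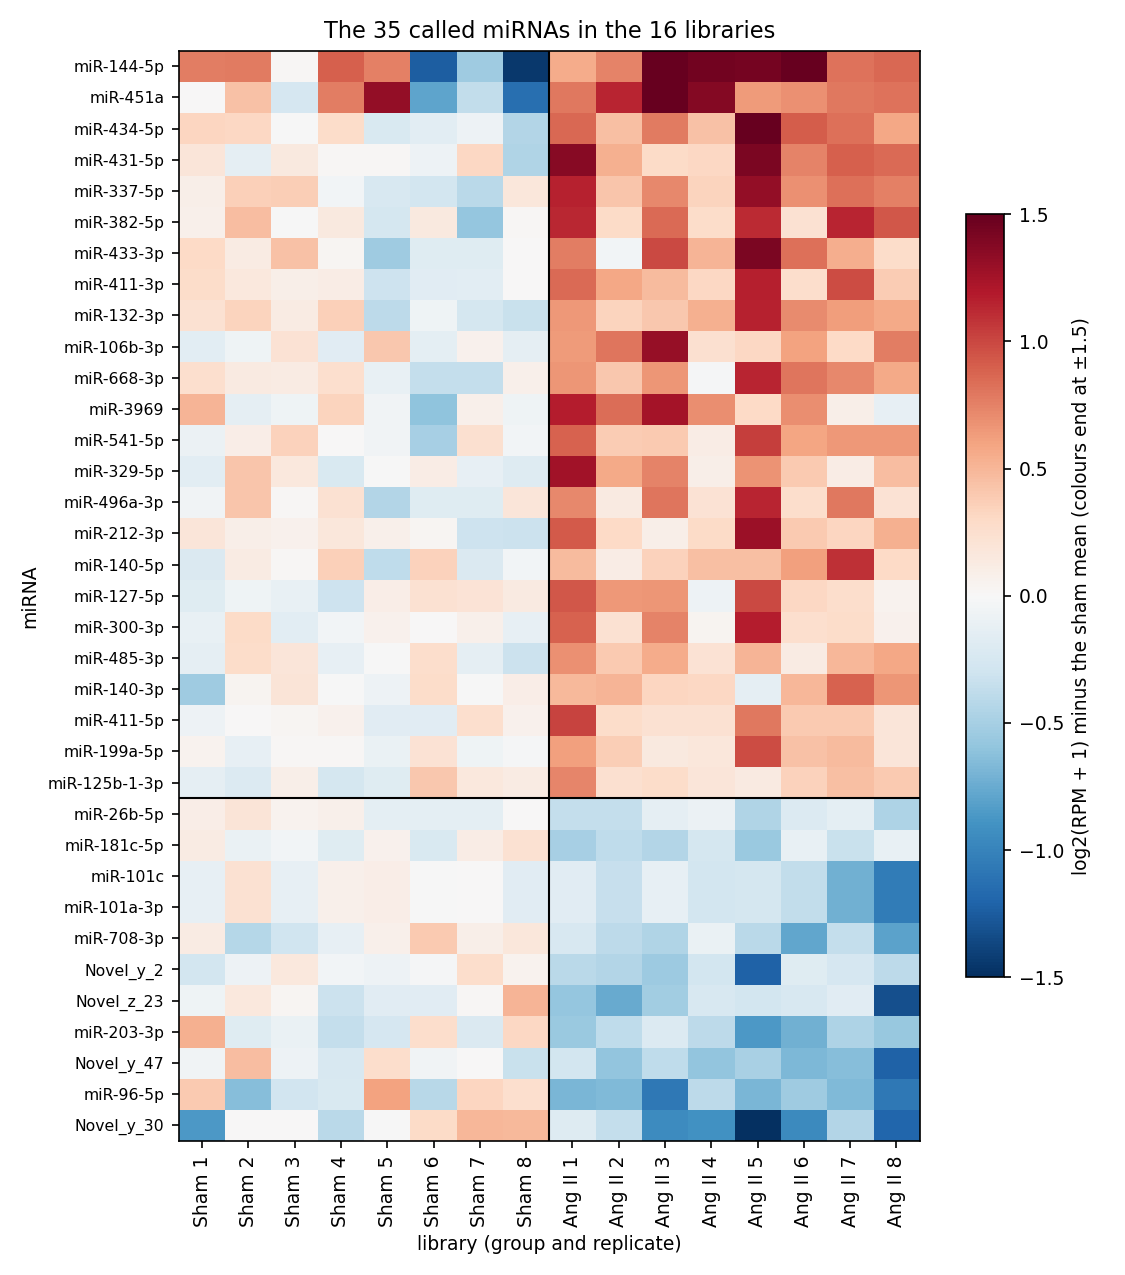
Log2(RPM + 1) minus the sham mean for the 35 called miRNAs (rows, ordered by fold change) in the 8 sham and 8 Ang II libraries (columns), with colours ending at 1.5 in either direction. Ang II replicates 1 and 5 show the strongest reds, and replicate 8 is the deepest blue for the falls.

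After group means were removed, the leading principal component carried 35.6% of the variance. The libraries were cut along it into 2 classes, A (the larger) and B, at the point where the summed squares within classes were smallest. Ang II had 6 libraries in class A and 2 in class B, and sham had 5 and 3. In class A the 24 rises had a median log2 fold change of 0.48 and the 11 falls one of -0.48, and in class B the medians were 0.68 and -0.43. Mouse numbers beginning with 26 covered 5 Ang II and 6 sham libraries, and there the medians were 0.61 and -0.39. All 35 kept their direction in each of these subsets. Since the 35 were picked on these same libraries, their direction and medians here are a description. Within class A, class B or series 26 alone limma called no row. There 32, 26 and 32 of the 35 had an unadjusted p under 0.05 in limma, which the same choice favours. Leaving out 1 library at a time, 15 of the 35 stayed called in all 16 fits. Called in fewer than 8 of them were miR-127-5p, miR-433-3p, miR-300-3p, miR-125b-1-3p, miR-3969, miR-144-5p, miR-708-3p, miR-26b-5p, Novel_z_23 and Novel_y_30. Recovered reads in distinct rows were 12.2 to 16.8 M in sham and 12.0 to 18.8 M with Ang II (means 14.7 ± 1.32 and 16.2 ± 2.40 M, SD, n = 8 each, exact two-sided permutation p = 0.131). Over all rows, copies included, the means were 17.6 ± 2.02 and 20.7 ± 3.31 M (exact two-sided permutation p = 0.0454), and the part of depth in the changes was not tested.

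The same miRNAs were compared with the 7-day groups, which share no library with the 14-day groups. At 7 days limma called 1 row (0.184%), none of the 35. It was miR-145a-3p of the smooth muscle list, with a log2 fold change of -0.12 after 14 days and -0.60 at 7 days (adjusted p = 0.0280 at 7 days). The 24 rises all lay above 0 there, with a median log2 fold change of 0.22 (0.06 to 0.41), and 6 of the 24 had an unadjusted p under 0.05, against 6.81% of all rows. The 11 falls all lay below 0, with a median of -0.16. In size, all 24 rises and all 11 falls were larger at 14 days, as were 384 of the 543 rows. The 35 were picked at 14 days, which by itself tends to leave smaller values at 7 days. Over all 543 rows 46.6% lay above 0 and 53.4% below. Over the 543 rows Spearman's rho between both effects was 0.42, a description across miRNAs that share libraries and loci.

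The difference between the times was itself tested and no row passed in limma (0 of 543, with 25, or 4.6%, at an unadjusted p under 0.05), nor in DESeq2, edgeR or limma-voom, with 36, 35 and 58 at an unadjusted p under 0.05. The smallest p belonged to miR-382-5p, at 0.75 after 14 days and 0.06 after 7 days (difference 0.68, adjusted p = 0.804). miR-411-5p was nearly level, at 0.43 and 0.37, and so was miR-26b-5p, at -0.27 and -0.24. miR-132-3p was at 0.62 and 0.40, and miR-431-5p at 0.80 and 0.41. miR-21a-5p ran the other way, at 0.36 after 14 days and 0.62 after 7 days.

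**Figure D5:**
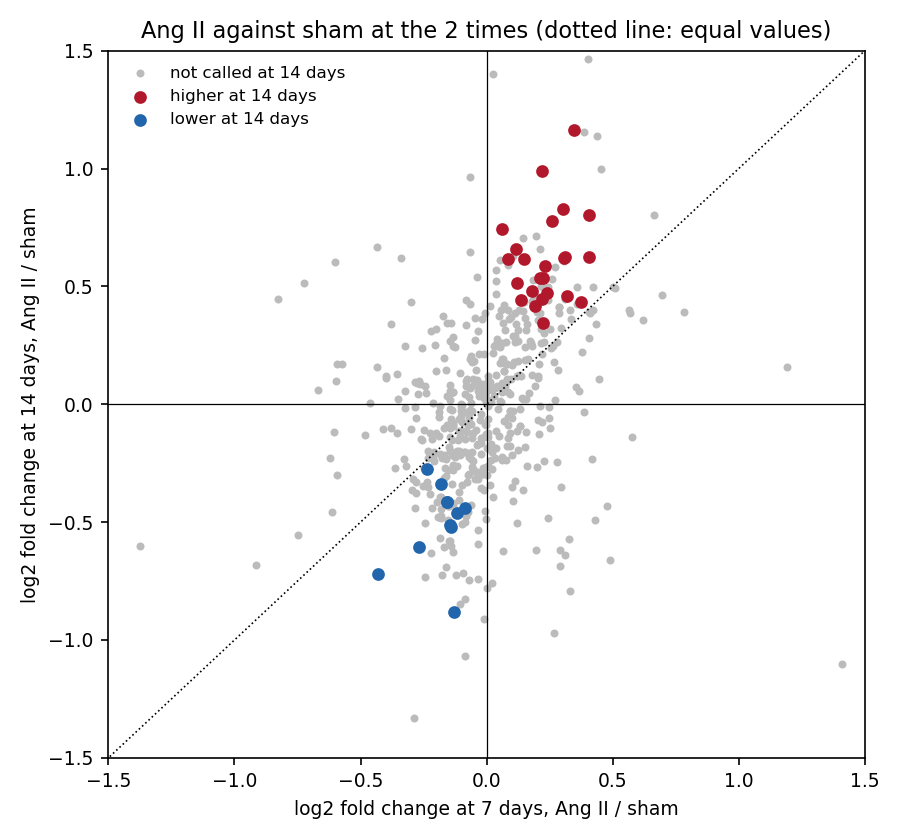
Log2 fold change of Ang II over sham at 7 days (horizontal) and at 14 days (vertical) for the tested rows, with the dotted line at equal values; 4 rows lie beyond the axes, which end at 1.5. The 24 rises (red) lie at the upper right and the 11 falls (blue) at the lower left, nearer to 0 at 7 days. These rows were picked at 14 days, which by itself favours larger values there.

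Features that the test did not use were compared among the called miRNAs as a description. The GC content of the mature sequence had a median of 50% in 23 rises and 39.1% in 7 falls with a RefSeq sequence, against 47.6% over 355 rows. The 7 falls count the nested miR-101a-3p and miR-101c separately, and 14 of the rises come from the Dlk1-Dio3 region, so few of these sequences are independent. A first-base U was found in 39.1% of the rises and 42.9% of the falls, against 40.8% of all. Across the 355 rows Spearman's rho between GC content and log2 fold change was 0.19.

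Arms of 1 hairpin mostly moved the same way. Of 114 hairpins with both arms tested, 85 (74.6%) had arms of the same sign. Among 17 hairpins with a called arm, 14 had the other arm on the same side of 0. The exceptions were miR-181c-3p, miR-26b-3p and miR-329-3p, with log2 fold changes of 0.03, 0.07 and -0.01. Of the 15 hairpins with 1 called arm, it was the less abundant arm in 3, miR-127 among them.

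Likeness was measured as Pearson's r of the deviations from the group means over 32 libraries, which share depth and tissue makeup. The 3 rows most like miR-132-3p were miR-138-5p (0.77), miR-212-3p (0.76) and miR-132-5p (0.74). For miR-199a-5p they were miR-214-3p (0.81), miR-214-5p (0.73) and the joint row miR-199a-3p/miR-199b-3p (0.71). miR-434-5p was closest to miR-214-5p (0.88) and miR-34c-5p (0.86), and miR-431-5p to miR-540-3p (0.71), miR-212-3p (0.70) and miR-199a-5p (0.69). miR-96-5p was closest to miR-141-3p (0.81), miR-181c-5p to miR-141-5p (0.70), and miR-203-3p to miR-378c (0.83). miR-144-5p was closest to miR-16-2-3p (0.89) and miR-15a-5p (0.85). Among the unplaced falls, Novel_y_30 was closest to miR-143-3p (0.90), Novel_y_2 to Novel_y_1 (0.92), Novel_y_47 to miR-101c (0.78) and Novel_z_23 to miR-145a-3p (0.48). Novel_y_2 also varied with miR-143-3p (0.78). Whether these entries are separate from the miRNAs they resemble was not tested.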

How the data were processed

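The authors deposited a signal table of miRNA rows by libraries; neither labels nor headers state its unit or scaling. Dividing each column by its smallest step gave whole reads for 100% of values (tolerance 0.001), so reads were recovered and the signal is called normalised RPM. The submitters' processing notes name STAR 2.3.1, edgeR 3.6.8 and mm10 without roles. Of 1722 rows, those at 0 throughout were dropped, 1 row per name was kept and equal rows were merged. The main test used log2(value + 1) in limma 3.58.1 (trend option, R 4.3.3), 1 model with a mean for each of 4 groups, two-sided. Fold changes are on that scale and understate changes of low miRNAs. SEs, SDs and p-values reflect the spread between libraries of separate mouse numbers. Reads carry no molecular identifiers, so recovered reads need not be independent molecules. Alternatives were other scalings, filters, pseudocounts, DESeq2 1.42.0, edgeR 4.0.16, limma-voom, subsets and left-out libraries, with count tests run on recovered reads. The code was tested on simulated data. The text names every called miRNA. Other names were drawn from other arms of called hairpins, the 4 members of each list with the smallest p, a fixed set of vascular miRNAs, the 5 most abundant and the 5 with the smallest p for the difference between the times, and not all of these are printed. Members and lists were chosen with earlier results of these data known. Labels do not say whether strands or reads with several places were separated, so near copies are uncertain. Hairpin positions and hosts come from the GRCm38 annotation.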

Additional observations from a re-analysis of the deposited data

Results flagged for a closer look

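With independent, normally distributed values, chance alone would mark about 1 group in 20 as holding a far library. The groups here share libraries, so that rate need not apply to them. Among 86 groups of 8 libraries examined, 8 held a library far from the others. Of these, 3 involved Ang II replicate 5 as the highest library, with miR-434-5p at 160 RPM, miR-132-3p at 40.9 RPM and the granulocyte miRNA miR-223-3p at 97.8 RPM. The same library was the lowest for Novel_y_2, at 214 RPM. miR-329-5p was highest in Ang II replicate 1, at 8.91 RPM, miR-106b-3p in Ang II replicate 3, at 48.7 RPM, and miR-140-5p in Ang II replicate 7, at 138 RPM. In sham, miR-21a-5p stood out in replicate 1, at 5870 RPM. Without Ang II replicate 5 the count of calls was 23, and without Ang II replicate 3 it was 21.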

How the results depend on the processing

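All 35 called miRNAs kept their direction in each alternative run that tested them, though they were picked on these same libraries. The count of 35 was 36 with RLE factors, 30 with TMM, 36 with a pseudocount of 0.5, 26 with 10, 27 with a mean of at least 10, 37 with the mouse-number series as a term and 33 without series 30. It was 23 with library totals alone (22 higher, 1 lower), which moved the median of all rows to 0.23, 17 without a filter, 15 with limma-voom, 55 with edgeR, 61 with DESeq2, 80 with the library class as a term and 3 in a fit to the 14-day groups alone. It was 0 within series 26, class A or class B (90, 107 and 106 rows at an unadjusted p under 0.05 in limma), 2 with the epithelial level as a covariate and 0 without the 4 sham libraries highest in miR-141-3p (94 unadjusted). The last 2, the class subsets and the fit without series 30 were chosen after the data were seen. Fewer libraries entered the subset fits, and for the other settings the cause was not tested. The class used as a term was likewise drawn from the data, along the leading component of the spread within groups. Such a term takes out part of that same spread, which by itself favours more calls. The count of 80 is therefore not comparable with the other counts. Leaving out 1 library gave 21 to 42 calls, with 21 without Ang II replicate 3 and 23 without Ang II replicate 5 or 7 or sham replicate 5 or 8. Of the 35 calls, 15 were made in all 16 of those fits, and 10 in fewer than 8 of them, with miR-26b-5p called in 3. The difference between the times gave 0 calls in each alternative run for it. With the epithelial level as a covariate, the median of the gut and liver list turned from -0.76 to 0.005. That of the epithelial list turned from -0.65 to 0.03, but the covariate is the mean of members of that list, so this move was built in. The arms in the covariate all lay below 0 in the main fit. A list that varies with them loses part of its difference under such a covariate, and the source of the gut and liver move was not tested. The median of the miR-183 cluster went from -0.72 to 0.03 without the 4 sham libraries, which were picked on miR-141-3p.

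No paired analysis was possible because the groups share no mouse numbers and replicates are numbered in accession order. The labels do not say whether mice shared a day or batch, and series and group cannot be fully told apart, since series 30 holds Ang II libraries only and series 27 a sham library only.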

Other observations

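Of the 10 rows with the largest change in either direction, 9 were unplaced entries (with names such as Novel_y_2) at 0 in at least 1 of the 16 libraries, and the other was miR-144-5p, the only one of the 10 to be called. These unplaced rows were chosen after their values were seen, and the values that follow are examples. Novel_z_35 was listed at 0 in the median sham library, with 75.9 RPM in the highest, and ran from 0 to 143 RPM with Ang II (log2 fold change 3.13 ± 1.37 SE, adjusted p = 0.149). Novel_x_4 ran from 0 to 125 RPM in sham and from 37.6 to 86.4 RPM with Ang II (adjusted p = 0.283). A value of 0 in at least 1 library was found in 42 of 128 unplaced entries and in 4 of 415 other rows.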
